A study of Mus musculus with 14 samples.

Results

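The 8 T-box transcription factor genes Tbx1, Tbx2, Tbx3, Tbx4, Tbx5, Tbx15, Tbx18 and Tbx20 were followed in open chromatin maps of mouse neural stem cells with and without the ZFTA-RELA fusion. They were taken by name, as 8 of the 21887 protein-coding genes of the mm10 RefSeq annotation, and every ATAC-seq peak that overlapped one of their bodies or lay within 50 kb was kept. Merged over all 14 peak lists, these peaks made 59 of 127850 regions. ATAC-seq marks accessible DNA by the insertion of adapters with the Tn5 transposase, and ZFTA-RELA, a fusion of a zinc finger protein with an NF-kB subunit, is a known driver of supratentorial ependymoma.

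There were 7 groups of 2 libraries, each library made from 50000 brain neural stem cells. EV libraries came from empty-vector cells, whose vehicle is labelled DMSO for replicate 1 but PBS for replicate 2, and ZR libraries from fusion cells labelled PBS. The remaining fusion groups of that series were ZR_DMSO (DMSO in the title but PBS in the treatment label), ZR_GSK343 (GSK343, an inhibitor of the histone methyltransferase EZH2, at 10 µM for 96 h) and ZR_dmCitra (dmCitra in the title, citraconate at 10 mM). A second library series held DMSO_50K, labelled empty vector with DMSO, and Citraconate_50K, labelled fusion with 10 mM citraconate, where the effects of treatment and of the fusion cannot be told apart. Citraconate is named in the design as an antagonist of ACOD1, and the labels assign none of its treatment times to a library. Whether the replicates of a group were separate cultures is not labelled, and p-values therefore measure only the spread between these libraries, which may be technical.

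T-box factors share a DNA-binding domain, the T-box, and pattern the heart, limbs and mesenchyme of the embryo. Tbx5 and Tbx20 act in the heart, Tbx4 and Tbx5 in the hindlimb and forelimb, Tbx1 in the pharyngeal arches, Tbx2 and Tbx3 as repressors, and Tbx15 and Tbx18 in mesenchyme. In the adult brain Tbx18 is known as a marker of mural cells, the pericytes and smooth muscle of vessels, and none of the 8 is a classical neural stem cell gene.

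The lists differed in length, from 12390 (ZR_DMSO replicate 1) to 60346 peaks (DMSO_50K replicate 2) on chromosomes 1 to 19, X and Y, and hold no read counts, so depth is unknown. Median peak width was 186 to 226 bp in ZR_DMSO, 260 and 330 bp in ZR_GSK343, and 419 to 533 bp in the other 10 libraries. Of gene ends with a peak no more than 1 kb away, EV had those of 7 and 8 of 9 neural stem markers, ZR those of 4 and 3, and the other libraries those of 1 to 5; Sox2 and Sox1 had one in EV alone, and Pax6 in no library. Of 11 mural and mesenchymal markers, 2 and 3 had such a peak in EV, 2 in each ZR library, 0 in ZR_DMSO, 1 and 4 in ZR_GSK343, 2 in each ZR_dmCitra library, 3 in each DMSO_50K library and 1 in each Citraconate_50K library. Of the pericyte markers, Rgs5 and Abcc9 had none in any list and Pdgfrb only in DMSO_50K. Cspg4 had one in EV replicate 2 and ZR_GSK343 replicate 2, Kcnj8 in EV replicate 2 and Anpep in ZR_GSK343 replicate 2. Each list had such a peak at 0 or 1 of 5 endothelial and at 0 to 3 of 5 microglial markers. The part of list length, peak width or other cell types in the results below was not tested.

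The median T-box gene had no more peaks around it than the median protein-coding gene, and most T-box regions were seen in a single list. Of the 59 regions, 34 (57.6%) were in 1 list, against 38.9% of all regions, and 6 (10.2%) were in 7 or more lists, against 22.6%. Of those 34, 15 were in ZR_GSK343 replicate 2, where 34.1% of all regions were in no other list. A single region, at the start of Tbx18, had a peak in all 14 lists. The median T-box gene had 0 to 3 peaks in its window, against 1 to 4 for the median protein-coding gene, whose windows differ in length. By peaks per 100 kb the 8 genes differed. In the EV lists Tbx2 stood above 89.9% and 78.2% of genes and Tbx1 above 75.2% and 67.7%. Every other T-box gene stood lower in each EV list, and Tbx3 and Tbx5 had no peak there. Of the 59 regions, 12 touched a body of one of the 8 genes, 6 lay at one of their ends, and 2 lay at an end of another protein-coding gene; 13.6% were at a gene end, close to the 12.4% of all regions. Tbx2 and Tbx4 lie 44.4 kb apart on chromosome 11, and 6 regions count for both.

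The EZH2-inhibitor and empty-vector libraries had the most T-box peaks for the length of their lists. The peak numbers were 16 and 17 in EV, 10 and 11 in ZR, 2 and 5 in ZR_DMSO, 10 and 31 in ZR_GSK343, 9 and 10 in ZR_dmCitra, 14 and 19 in DMSO_50K, and 7 and 7 in Citraconate_50K. Per 10000 peaks of the list, the mean was 5.31 ± 0.156 in ZR_GSK343, 4.24 ± 0.467 in EV, 2.90 ± 0.347 in DMSO_50K, 2.35 ± 0.169 in ZR, 2.29 ± 0.120 in Citraconate_50K, 2.12 ± 0.215 in ZR_dmCitra and 2.00 ± 0.552 in ZR_DMSO (SD, n = 2 each). In this order ZR_GSK343, EV and DMSO_50K did not overlap their neighbours, while ZR, Citraconate_50K, ZR_dmCitra and ZR_DMSO each overlapped the next. With 2 libraries against 2, an exact two-sided permutation test cannot go below p = 0.333, so no difference between any of these groups could pass it. Without the Tbx1 window, which held 18 of the 31 peaks of ZR_GSK343 replicate 2, the 2 ZR_GSK343 libraries had 3.64 and 2.27 peaks per 10000, and EV 3.43 and 2.99, so that the groups overlapped.

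**Figure D1:**
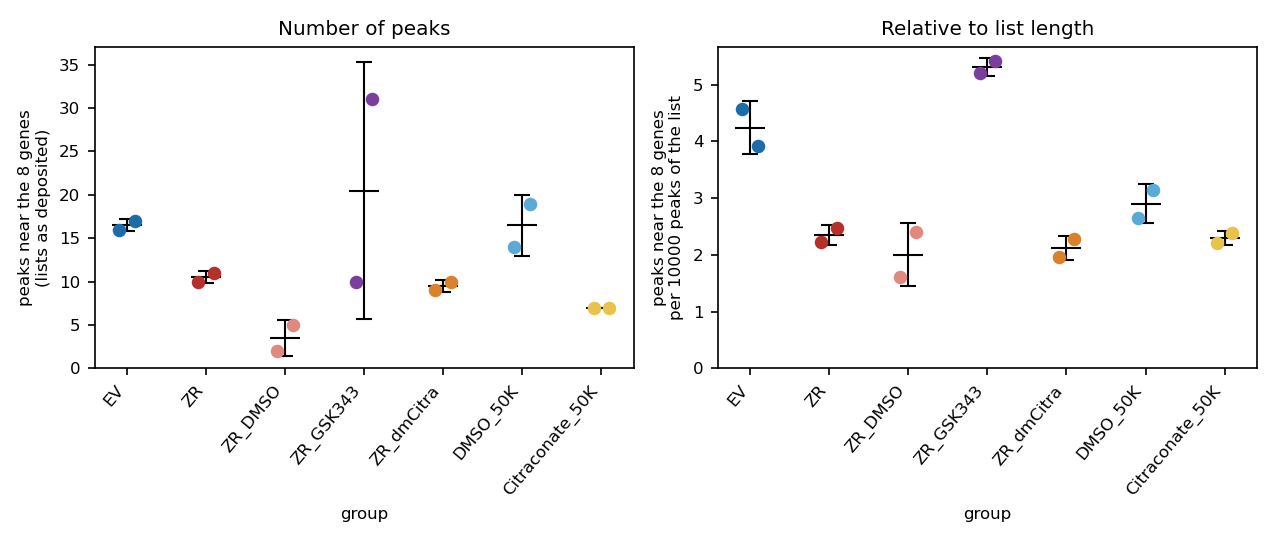
Number of peaks within 50 kb of the 8 T-box genes in each library (left, lists as deposited) and per 10000 peaks of the list (right), by group; points are libraries, bars the mean ± SD of 2. The 2 ZR_GSK343 libraries differ in number (10 and 31) but sit together at 5.20 and 5.42 per 10000, above the EV libraries at 4.57 and 3.91.

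Tbx18 had the most constant peak, at its start on chromosome 9 (body 9:87702800-87731260, minus strand, mm10). The merged region, 9:87729212-87731717, reached from just upstream of the start into the gene. In all 14 lists the summit of the best peak lay between 127 and 52 bp upstream of the start given by RefSeq (GRCm38.p6). The 250 bases before that start are shown because they hold every one of these summits; capitals mark the 76 bases over which the summits were spread. For contrast the same stretch is shown for Tbx20 (9:24774304-24774553, minus strand) and for the inner of the 2 Tbx1 starts (16:18588900-18589149, minus strand), which had a peak in 0 lists, with GC boxes (GGGCGG on either strand) in capitals. Each reads 5′ to 3′ toward the start.
Tbx18: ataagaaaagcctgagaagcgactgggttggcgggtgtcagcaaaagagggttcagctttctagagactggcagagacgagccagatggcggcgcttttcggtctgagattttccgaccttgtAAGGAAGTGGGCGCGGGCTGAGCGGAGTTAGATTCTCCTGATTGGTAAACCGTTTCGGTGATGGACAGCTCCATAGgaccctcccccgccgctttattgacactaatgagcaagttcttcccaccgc
Tbx20: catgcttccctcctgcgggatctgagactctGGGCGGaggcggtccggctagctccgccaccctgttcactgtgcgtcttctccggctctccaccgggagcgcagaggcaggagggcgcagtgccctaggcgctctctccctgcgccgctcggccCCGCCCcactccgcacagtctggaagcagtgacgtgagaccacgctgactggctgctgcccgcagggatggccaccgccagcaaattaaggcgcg
Tbx1: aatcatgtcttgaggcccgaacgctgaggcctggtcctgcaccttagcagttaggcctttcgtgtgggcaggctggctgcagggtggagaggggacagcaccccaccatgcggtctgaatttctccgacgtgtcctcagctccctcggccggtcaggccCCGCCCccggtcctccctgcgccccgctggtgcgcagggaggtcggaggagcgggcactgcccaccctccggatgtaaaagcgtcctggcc

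The Tbx18 stretch (9:87731261-87731510) has 54.0% GC and 15 CpG, against medians of 64% and 20 over promoter windows with a peak in all 14 lists, and 47.2% and 3 over those with a peak in none. The Tbx20 stretch has more of both, 68.8% GC and 22 CpG, as has the inner Tbx1 stretch with 67.2% and 17, so these windows without a peak were richer in CpG than that of Tbx18. The other Tbx1 start (54.4% GC, 10 CpG) and the Tbx4 start (58.4% GC, 6 CpG) also had a peak in 0 lists. Of all 32851 promoter windows, 12.8% had a peak in all 14 lists and 55.5% in none.

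On both strands, the Tbx18 stretch holds a CCAAT box at position -87 from the start, inside the capitals, a motif found in 33.8% of all windows. The Tbx20 stretch holds GC boxes at -219 and -95 and the inner Tbx1 stretch holds one at -91 (32.7% of all windows). The T-box recognition sequence AGGTGTGA (1.12% of all windows), the kappaB consensus (3.90%) and the AP-1 motif TGANTCA (6.75%) were in none of the 5 T-box windows. Promoter sequences for Tbx2, Tbx3, Tbx5 and Tbx15 were not used here.

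The Tbx18 start peak stood above most peaks of every list. Its percentile in the full list, higher for stronger peaks, was 62.6 in ZR_DMSO replicate 1 and in ZR_GSK343 replicate 1. In every other list it was 82.8 to 95.6. Its place in the list, counted from 1 for the strongest by −log10 q, was 6003 and 6879 in EV, with tied peaks sharing a mean place, against 1973.5 and 2849.5 in ZR. It was 4637.5 and 2176 in ZR_DMSO, 7193 and 5213.5 in ZR_GSK343, and 2020.5 and 2236.5 in ZR_dmCitra. In the second series it was 2907 and 3015 in DMSO_50K and 3020 and 3959.5 in Citraconate_50K. Groups were compared in place among the regions kept after reduction to equal length, as given with each comparison. That reduction leaves each place unchanged, so it does not adjust places for the different lengths of the lists. For some regions the percentile in the full list is therefore also given below.

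The peak was broad in 11 lists, at 2003 to 2506 bp. It was narrow in the other 3, at 212 and 196 bp in ZR_DMSO and 185 bp in ZR_GSK343 replicate 1. In ZR_GSK343 replicate 1 the span of the broad peak held 3 separate peaks of 185, 820 and 437 bp, and in ZR_DMSO replicate 2 it held 2, of 196 and 171 bp. These 3 lists were also the 3 shortest, of 12390 to 20881 peaks.

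Beyond its start, Tbx18 had 4 further regions, none in more than 4 lists. A peak 33.9 kb upstream (9:87764979-87765376) and one 9.3 kb inside the gene (9:87721868-87722119) were in both EV lists and in none of the other 12. A peak 22.9 kb inside the gene (9:87708132-87708554) was in both ZR lists, ZR_dmCitra replicate 1 and DMSO_50K replicate 1. In the deposited lists the body of Tbx18 therefore carried one inner peak in EV and another in ZR, beside a start peak common to both. Both inner peaks were weak, at percentiles of 11.6 and 34.5 in EV and 32.3 and 17.8 in ZR. The inner ZR peak was not called gained at equal list length.

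**Figure D2:**
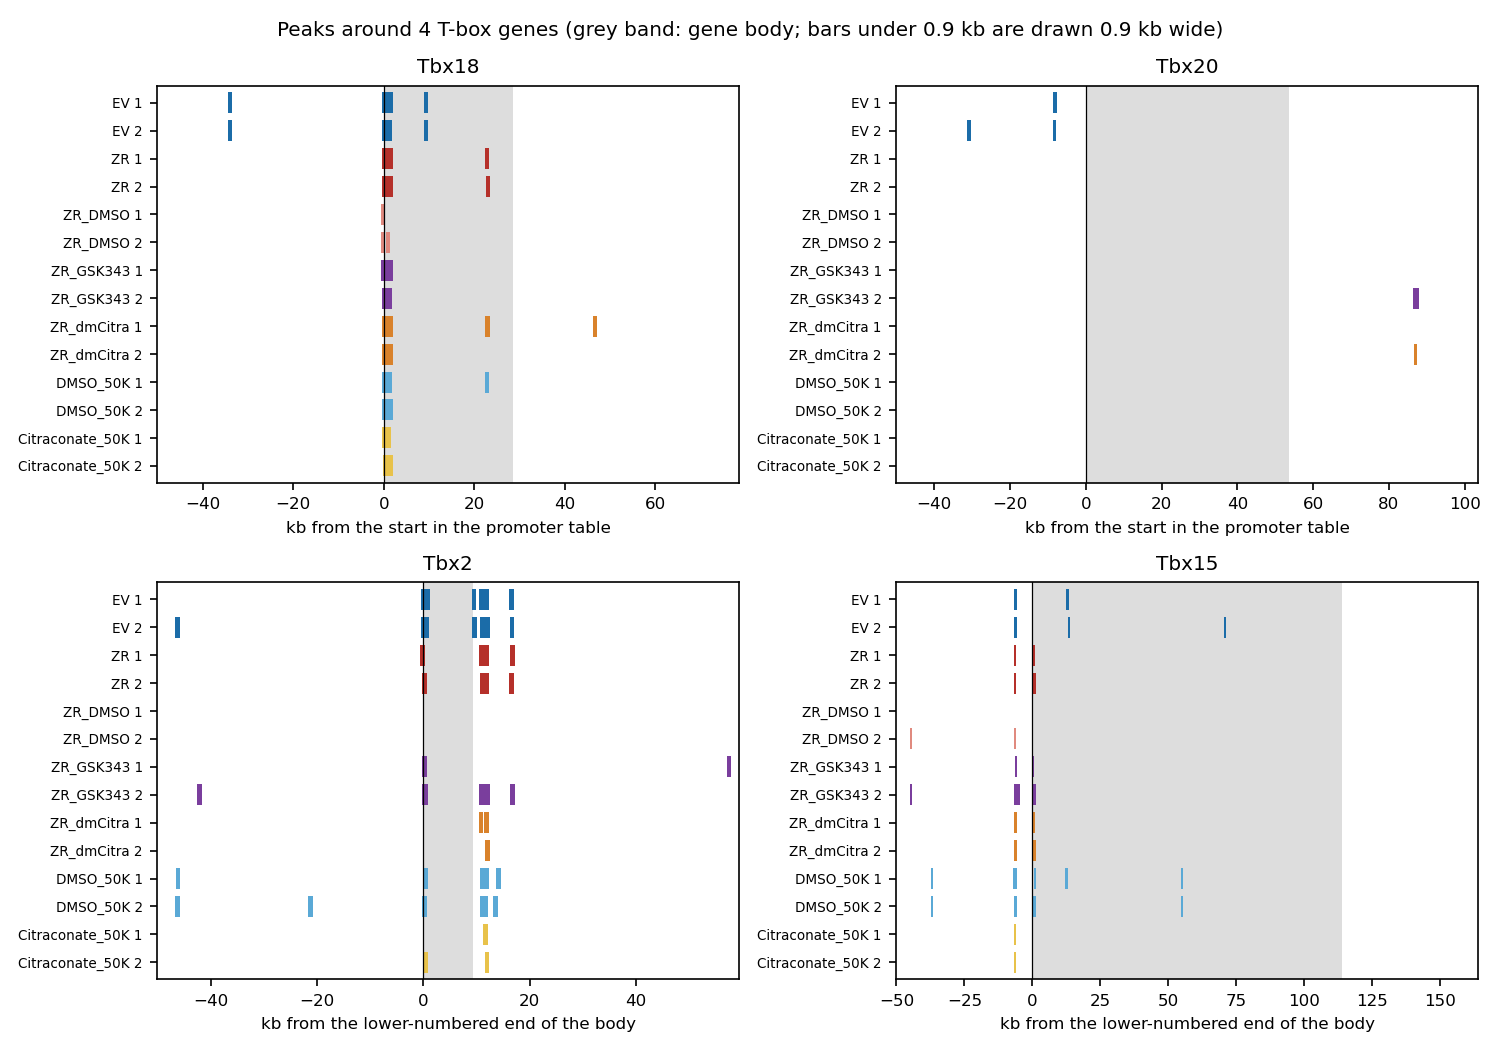
Peaks of each library (rows) around Tbx18, Tbx20, Tbx2 and Tbx15, in kb from the RefSeq start in the gene's own direction (upper panels) or from the lower-numbered end of the body (lower panels); grey bands are gene bodies. The Tbx18 start has a bar in all 14 rows, while the bars 33.9 kb upstream of it and 8.2 kb upstream of Tbx20 appear in the EV rows only.

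Tbx15, which acts in the mesenchyme of skin, skeleton and fat, had its most shared region 6.4 kb below its lower-numbered end (3:99233224-99234692, body 3:99240348-99354260), in 13 lists. Its place was 28279 and 30869 in EV, 30362 and 19514.5 in ZR, 14428 in ZR_DMSO replicate 2, 16123.5 and 31056.5 in ZR_GSK343, and 16641.5 and 13222 in ZR_dmCitra. In the second series it was 5609.5 and 8519 in DMSO_50K, above the 16168 and 21077 of Citraconate_50K. Peak width ran from 95 bp in ZR_DMSO replicate 2 to 1302 bp in DMSO_50K replicate 1.

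A second Tbx15 region sat at the lower-numbered end of the gene (3:99240467-99241622), where the annotation also has the non-coding gene Gm46817. It was in both libraries of ZR, ZR_GSK343, ZR_dmCitra and DMSO_50K and in no library of EV, ZR_DMSO or Citraconate_50K. Its place was 28428 and 27981.5 in ZR, 16123.5 and 26498 in ZR_GSK343, 17507 and 16179 in ZR_dmCitra, and 49300 and 41390.5 in DMSO_50K. Peaks were 806 and 740 bp wide in ZR and 154 and 351 bp in ZR_GSK343, where the peaks of the 2 libraries did not overlap each other. Libraries labelled empty vector thus differed at this end, with no peak in EV and one in both DMSO_50K lists. A region 55.1 kb inside Tbx15 and one 36.8 kb below it, within Wars2, were in the DMSO_50K lists alone.

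Tbx2, a repressor that holds back differentiation in the heart, limb and eye, had its strongest peak in EV at its lower-numbered end (11:85832100-85833604, body 11:85832615-85841948), where the non-coding gene 2610027K06Rik also lies. Its place was 4827.5 and 6160.5 in EV, with widths of 964 and 1505 bp. In ZR it was 37136.5 and 39097.5, with widths of 300 and 266 bp and no overlap between the 2 peaks. It was 9386 and 16499.5 in ZR_GSK343 (271 and 1072 bp), 41450.5 and 39445 in DMSO_50K (680 and 396 bp), and 21077 in Citraconate_50K replicate 2. No peak was listed there in ZR_DMSO, ZR_dmCitra or Citraconate_50K replicate 1. The end of Tbx2 was thus among the stronger peaks of the EV lists and among the weaker ones, or without a peak, in ZR and the other vehicle and citraconate lists.

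Between Tbx2 and Tbx4, which lie side by side, the most shared region was 2.3 kb above Tbx2 (11:85843234-85845222) and in 11 lists. Its place was 11590.5 and 17727 in EV, 16380.5 and 23162.5 in ZR, 9933.5 in ZR_GSK343 replicate 2, 27861 and 32412 in ZR_dmCitra, 22272 and 20329 in DMSO_50K, and 16168 and 12350 in Citraconate_50K. EV and ZR overlapped in place there. A region 7.3 kb above Tbx2 (11:85849005-85849402) was in both EV lists, both ZR lists and ZR_GSK343 replicate 2. A region at the upper end of Tbx2 (11:85841949-85842276) was in the EV lists only.

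Tbx4 itself (body 11:85886367-85916097), a gene of hindlimb outgrowth, had a single peak in its body, 11:85889956-85890158, in ZR_GSK343 replicate 1. All 6 of its regions, this one included, also lie in the window of Tbx2. Tbx5 (body 5:119796514-119885220), needed for the heart and forelimb, had 1 peak in all 14 lists together, 36.9 kb above it (5:119922086-119922239) in ZR_dmCitra replicate 2. Tbx5 had the fewest peaks of the 8 genes.

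Tbx3 (body 5:119670534-119684724), a relative of Tbx2, had 6 regions and no peak in its body. One of them, 36.2 kb above the gene (5:119720582-119721205), was in both DMSO_50K lists, at places 17443 and 18403.5 with widths of 486 and 588 bp, and in none of the other 12. A region 6.5 kb above it, within the antisense gene Tbx3os2 (5:119691096-119691378), was in ZR replicate 2, ZR_GSK343 replicate 2 and ZR_dmCitra replicate 2. The other 4 were in DMSO_50K replicate 2 alone, which held 5 of the 6 regions.

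Tbx20 (body 9:24720812-24774303), a cardiac factor, had 4 regions, all outside its body. The region 8.2 kb upstream of its start (9:24782280-24782729), within the non-coding gene Gm29824, was in both EV lists and in no other. One further region, 33.4 kb below the gene within Dpy19l2, was in ZR_GSK343 replicate 2 and ZR_dmCitra replicate 2.

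Tbx1 (body 16:18580979-18590671), a gene of the pharyngeal arches, had the most regions, 23, but its own body held 1, in ZR_GSK343 replicate 2. The region with the most lists lay 39.2 kb above it at an end of Septin5 (16:18629023-18630691) and was in 12 lists, all but ZR_DMSO. Its places were 10160.5 and 9495 for EV, 26689.5 and 17610 in ZR, 9386 and 8861 in ZR_GSK343, 23045 and 18055.5 in ZR_dmCitra, 18308.5 and 27071 in DMSO_50K, and 11495.5 and 19069.5 in Citraconate_50K. As it lies at the end of a neighbour, the peak cannot be assigned to Tbx1.

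In the Tbx1 window, ZR_GSK343 replicate 2 had 18 peaks and ZR_GSK343 replicate 1 had 3, against 1 to 4 in the other 12 libraries. The 18 peaks came to 16.4 per 100 kb, where the median protein-coding gene of that library had 3.01, and 98.8% of genes had fewer. Of the 23 Tbx1 regions, 12 were in that library alone. Regions that no other list held were common in it, making up 34.1% of all its regions.

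The strongest T-box peaks by place were in the window of Tbx1 too. A narrow peak 47.7 kb below the gene, within the body of Gnb1l (16:18533192-18533328), had places 162 and 105 in ZR_DMSO, with widths of 134 and 137 bp, and 1574 in ZR_GSK343 replicate 2. It was in none of the other 11 lists.

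**Figure D3:**
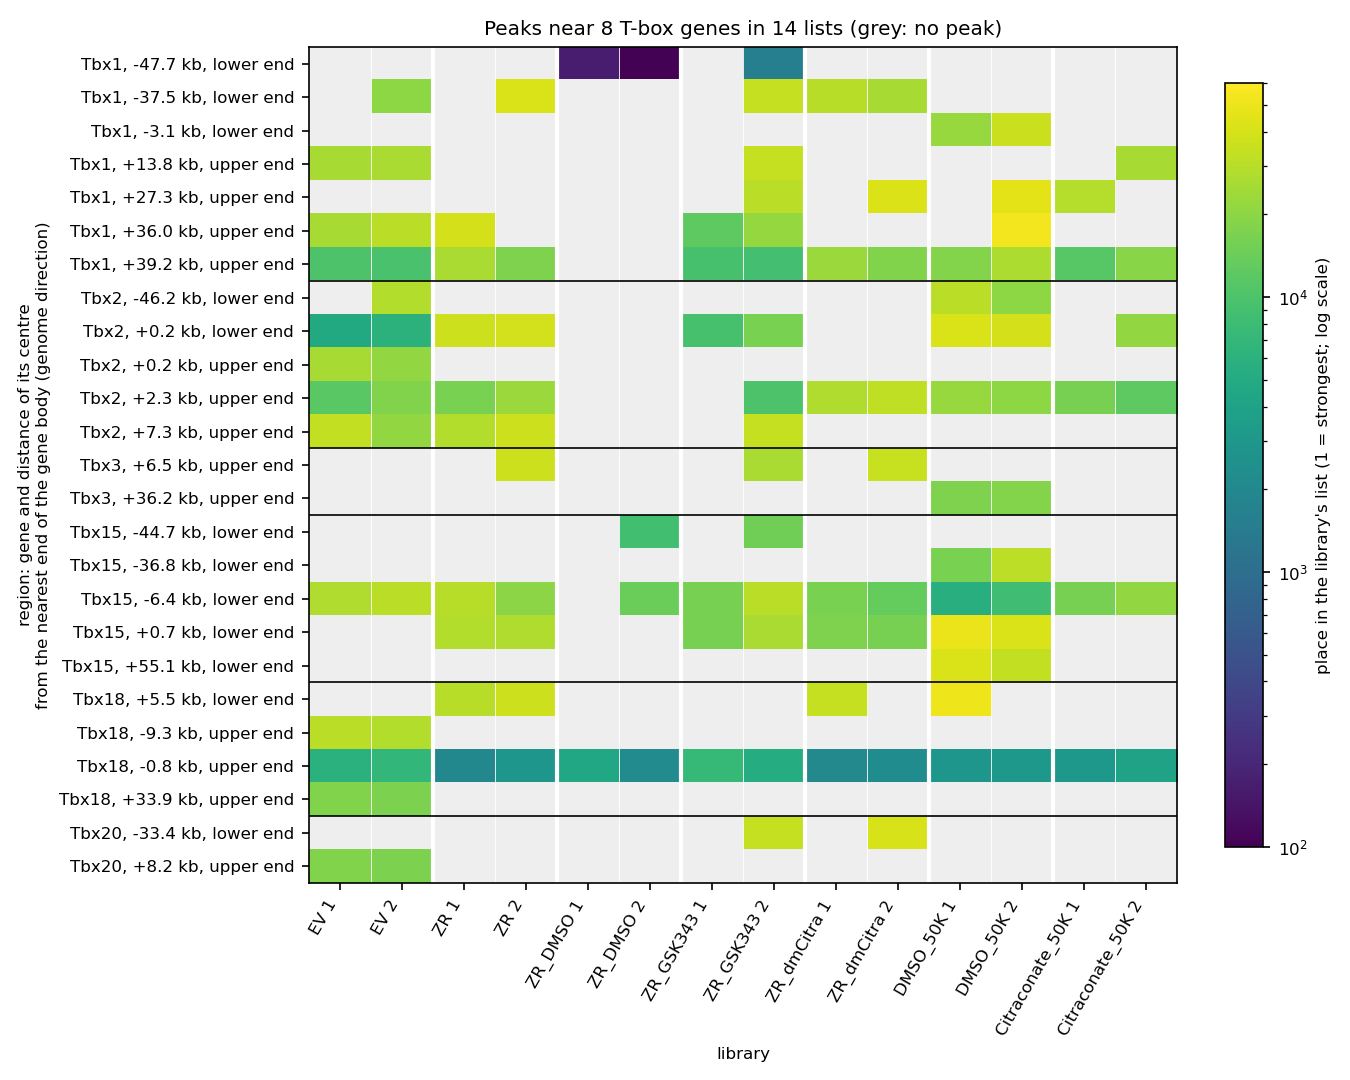
Place in the library's list (colour, log scale, dark for the strongest peaks) of the 25 regions near the T-box genes found in 2 or more lists; rows are regions, labelled by gene and distance in kb of the centre from the nearest gene end, with positive distances toward higher coordinates, and columns are libraries. Tbx5 and the body of Tbx4 have no such row; the row of the Tbx18 start is filled in all 14 columns, and 4 rows are filled in the EV columns only.

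The fusion was compared with the empty vector by calling a region gained where both ZR lists and neither EV list had a peak, and lost in the opposite case, after all 4 lists had been reduced to their 34989 strongest peaks. Near the T-box genes 7 of 20 regions (35%) were lost, against 19.3% of all regions, and 1 (5%) was gained, against 22.0% of all regions. The lost regions belonged to Tbx1, Tbx2, Tbx4, Tbx18 and Tbx20, and the gained one to Tbx15. The peak numbers in these equal lists were 16 and 16 in EV and 7 and 6 in ZR, a difference of -9.5 without overlap (two-sided exact permutation p = 0.333, the smallest possible). Of all protein-coding genes with a region, 49.7% had a lost and 49.6% a gained one, so a lost region near one gene was common.

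By place, the strongest lost region was the lower end of Tbx2, at 4827.5 and 6160.5 in EV. It counts as lost at equal length only, since the deposited ZR lists hold weak peaks there. Next came the region 8.2 kb upstream of Tbx20 (450 and 352 bp) and that 33.9 kb upstream of Tbx18 (379 and 351 bp), tied at 18014 and 16779. The upper end of Tbx2 stood at 25694.5 and 21343. Of 2 lost Tbx1 regions, one 13.8 kb above the gene (16:18604316-18604724) stood at 25694.5 and 26337. The other, 36.0 kb above it within Septin5 (16:18626433-18626972), stood at 25694.5 and 30869. It too counts as lost at equal length only, since the deposited list of ZR replicate 1 holds a peak there at 39461.5. The region inside Tbx18 stood at 30942 and 28445.5, near the end of the equal lists.

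Away from ends of protein-coding genes, 5 of 15 T-box regions were lost and 0 gained, against 21.9% and 26.1% of all such regions. The gained region was the lower end of Tbx15, at 28428 and 27981.5 in ZR. Lists as deposited gave 2 gained of 22 T-box regions, adding the one 22.9 kb inside Tbx18, and 5 lost (22.3% and 15.4% of all regions). A window of 10 kb in place of 50 kb left 4 lost.

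Of the 7 lost regions, 4 had no peak in any of the 12 deposited lists outside EV: those near Tbx20, upstream of Tbx18, inside Tbx18 and at the upper end of Tbx2. Among all regions lost with the fusion, 61.3% had none, so this share is close to the background. In the deposited ZR_GSK343 lists 2 and 3 of the 7 had a peak, where 3.26% and 13.7% of all lost regions had one; these were the end of Tbx2 and regions of Tbx1. No ZR_DMSO or ZR_dmCitra list had a peak at any of the 7, where 0.779% and 1.48% (ZR_DMSO) and 9.50% and 8.84% (ZR_dmCitra) of all lost regions had one. The DMSO_50K lists, labelled empty vector as EV is, had 1 and 2 of the 7 (22.1% and 26.9% of all lost regions). The Citraconate_50K lists had 0 and 2 (8.66% and 7.82%). Of all regions gained with the fusion, 80.3% and 85.6% had a peak in the deposited DMSO_50K lists. The shares were 17.5% and 33.3% in ZR_DMSO, 7.60% and 58.3% in ZR_GSK343 and 87.3% and 85.5% in ZR_dmCitra. In Citraconate_50K they were 46.4% and 43.8%, and in EV, which served to define the call, 0% and 4.24%. Whether the DMSO_50K cells carried the fusion was not tested.

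In the 4 T-box regions present in all 4 equal lists, place moved both ways. The Tbx18 start stood higher in both ZR lists than in both EV lists, as did 27.9% of all such regions, and its peak was wider, 2410 and 2368 bp against 2322 and 2128 bp (33.7%). The Septin5 end near Tbx1 stood lower (43.5%) and its peak was narrower, 572 and 840 bp against 1378 and 1484 bp (21.8%). The region below Tbx15 was wider in ZR and that between Tbx2 and Tbx4 narrower, with overlapping places. As percentiles of the full lists the region below Tbx15 did not overlap, at 32.3 and 56.2 in ZR and 19.2 and 29.0 in EV. The share of all regions without overlap in percentile was not computed, so this is a description only. Widths relative to the library median gave the same directions (33.1% and 19.2%).

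**Figure D4:**
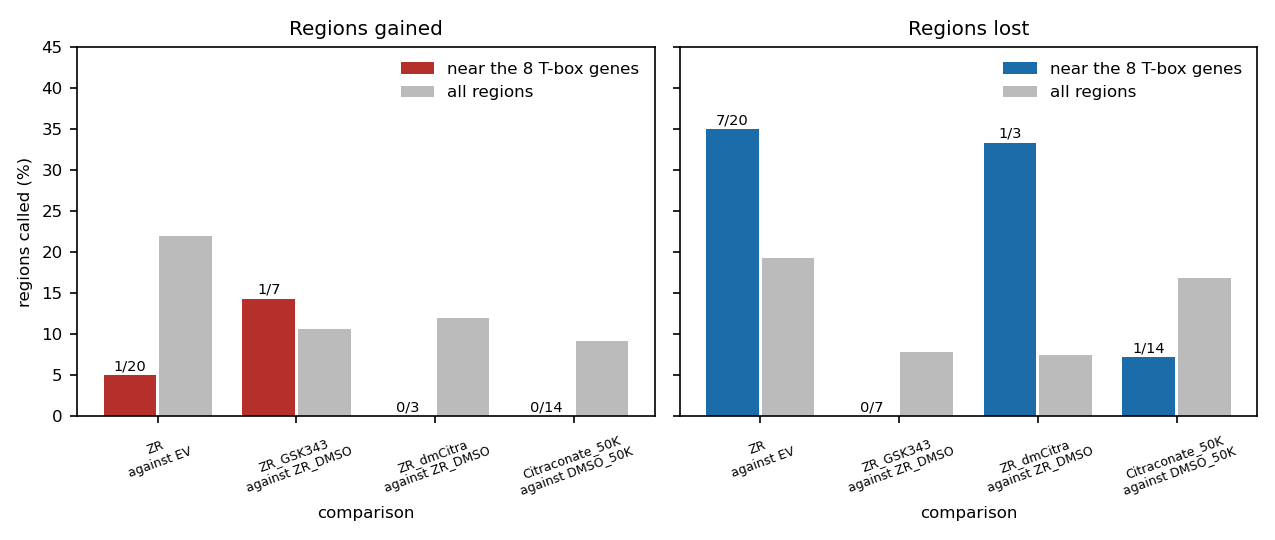
Percentage of regions gained (left) and lost (right) in each of the 4 comparisons at equal list length, for regions near the 8 T-box genes (coloured, with counts) and for all regions (grey). In ZR against EV 7 of 20 T-box regions were lost and 1 gained; the other comparisons rest on 3 to 14 T-box regions.

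EZH2 inhibition in fusion cells was compared with ZR_DMSO in lists of 12390 peaks. Of 7 T-box regions, 1 was gained (14.3%, against 10.6% of all regions) and 0 lost (against 7.76%). The gained region was the Septin5 end in the Tbx1 window, at 9386 and 8861 in ZR_GSK343. Away from ends of protein-coding genes, 0 of 4 T-box regions were gained and 0 lost, against 3.95% and 12.5% of all such regions. The T-box peaks numbered 5 and 4 in ZR_GSK343 and 2 and 3 in ZR_DMSO, a difference of 2 (two-sided exact permutation p = 0.333). In ZR_GSK343 replicate 1, 2 of the 5 were separate peaks of the single Tbx18 start region, 185 and 820 bp wide. In the lists as deposited 3 of 34 T-box regions were gained, against 7.75% of all regions, with the lower end of Tbx2 and the Tbx1 region within Septin5 added. The Tbx18 start was the 1 T-box region in all 4 lists and had a lower place in both ZR_GSK343 libraries, as did 21.7% of all such regions. As percentiles of the full lists the groups overlapped there, at 62.6 and 90.9 in ZR_GSK343 and 62.6 and 89.6 in ZR_DMSO. The width of this peak also overlapped between the groups.

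With ZR as the control in lists of 19239 peaks, the lower end of Tbx2 was the 1 gained region of 11 near the T-box genes (7.63% of all regions were gained), at 9386 and 16499.5, and 0 were lost (13.8%). The same region was the strongest of those lost between EV and ZR; both comparisons use the ZR libraries.

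Citraconate in fusion cells was compared with the same ZR_DMSO libraries in lists of 12390 peaks, which left 3 T-box regions. Of these 0 were gained (12% of all regions) and 1 was lost (7.47%), the narrow peak within Gnb1l near Tbx1, at 162 and 105 in ZR_DMSO. The T-box peaks numbered 1 and 1 in ZR_dmCitra, both at the Tbx18 start, and 2 and 3 in ZR_DMSO, a difference of -1.5 (two-sided exact permutation p = 0.333). As deposited, 4 of 15 T-box regions were gained, against 35.1% of all regions: the lower end of Tbx15, the region between Tbx2 and Tbx4, a Tbx1 region within Gnb1l and the Septin5 end. The difference in peak number then turned to 6; the deposited lists held 45751 and 44033 peaks in ZR_dmCitra and 12390 and 20881 in ZR_DMSO. The Tbx18 start peak was wider in ZR_dmCitra, 2483 and 2427 bp, as were 98.4% of all regions present in all 4 equal lists.

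With ZR as the control in lists of 44033 peaks, 0 of 17 T-box regions were gained (4.82%) and 1 was lost (5.33%), the one 7.3 kb above Tbx2.

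In the second series, Citraconate_50K was compared with DMSO_50K in lists of 29432 peaks. Of 14 T-box regions 0 were gained (9.09% of all regions) and 1 was lost (7.14%, against 16.8%), the Tbx3 region 36.2 kb above the gene. The T-box peaks numbered 7 and 7 in Citraconate_50K and 7 and 6 in DMSO_50K, a difference of 0.5 (two-sided exact permutation p = 1). As deposited 6 of 26 T-box regions were lost, against 29.7% of all regions: 3 near Tbx15 and 1 each near Tbx1, Tbx2 and Tbx3.

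By place, the region below Tbx15 and the Tbx18 start stood lower in both Citraconate_50K lists (25.0% of all regions in the 4 lists). For the Tbx18 start this was by 3020 against 3015 at the nearest. The region between Tbx2 and Tbx4 stood higher by place only (46.3%). As percentiles of the full lists the groups overlapped there, with Citraconate_50K replicate 1 below both DMSO_50K libraries. The region below Tbx15 and the Tbx18 start were lower in Citraconate_50K by percentile too, without overlap. All 4 T-box regions present throughout had narrower peaks in Citraconate_50K, as had 56.6% of all such regions; relative to the library median this held for the regions of Tbx15 and of Tbx2 and Tbx4 (42.9%).

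Other genes of the family and of its developmental setting were counted in the same way. Of 9 other T-box genes (Tbx6, Tbx10, Tbx19, Tbx21, Tbx22, T, Eomes, Tbr1 and Mga), 5 had a region gained with the fusion, namely Tbx19, Mga, Tbx6, Eomes and T, and 2 a lost one, Tbx19 and Tbx21. In regions, 11 of 39 were gained and 3 lost, where 22.0% and 19.3% of all regions were; the difference from the 8 genes was not tested. Of 18 genes of heart, limb and mesenchyme development, such as Gata4, Hand2 and Prrx1, 12 had a gained and 8 a lost region (49.6% and 49.7% of all genes with a region), and 22 of 87 regions were gained and 16 lost, near the shares of all regions. With EZH2 inhibition 5 of 16 regions of the other T-box genes were gained and 0 lost, and 1 of 28 gained and 1 lost in the developmental list (10.6% and 7.76% of all regions). With citraconate in the first series 3 of 10 were gained and 0 lost, and 1 of 21 gained and 1 lost in the developmental list (12% and 7.47%). In the second series 4 of 35 were gained and 2 lost, and 2 of 60 gained and 14 lost in the developmental list (9.09% and 16.8%).

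Among genes on other chromosomes, those whose peak number per 10000 most resembled that of Tbx1 over the 14 lists included Cacna2d4 (Pearson r = 0.959) and the neighbours Hoxc10, Hoxc11 and Hoxc12 (0.948), which share peaks. Without the ZR_GSK343 libraries r was 0.770 and 0.790, so the likeness rests in part on these libraries. The points share list length, and r is given as a description only.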

How the data were processed

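ATAC-seq libraries of 14 samples were processed with BWA, SAMtools and Picard on build mm10, per the submitters' processing notes, which list no versions. MACS2 made 1 peak list per library, per the names of the deposited peaks; for its settings and any Tn5 offset correction, nothing is given in the sources used here. The deposited lists give each peak a position, a summit offset, the authors' score (not used), a fold enrichment (a ratio to background) and −log10 p and q values. These are the authors' own values, and −log10 q served only to rank and filter peaks within a list, ties being broken by −log10 p, fold enrichment and position.

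Groups came from titles and labels. Peaks on chromosomes 1 to 19, X and Y were used. In a comparison, all 4 lists were cut to the shortest one's length, overlapping peaks were merged (1 bp or more), and regions were called by presence in both libraries of one group and neither of the other. Differences in peak number were tested by exact permutation, two-sided. With no counts in the lists, depth is unknown and no counting interval was possible. Gene positions came from a RefSeq table of GRCm38.p6, whose coordinates are those of mm10 and which gives no strand; promoter sequences and starts came from a RefSeq table of the same build. All 8 genes, 9 other T-box genes and 18 developmental genes matched.

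The members, lists and tests were chosen with earlier results of these data known. All 8 genes were described; the regions named were the one with the best place for each gene and up to 3 gained and 3 lost per gene in ZR against EV, with up to 2 of each in the other comparisons. For Tbx1, the genes of most similar peak number over the 14 lists were also named, of which 1 is not reported here. Further regions, such as those shared by most lists or confined to 1 group, were chosen after their values were seen. The alternatives tried were the full lists, a −log10 q limit of 5, peaks over 50% of a region, a 10 kb window, no regions at ends of other genes, ZR in place of ZR_DMSO, the replicate number as a block, leaving out each library and, chosen after seeing the data, leaving out the Tbx1 window. The calling was also run on simulated lists that shared nearly all their peaks, at nearly the same positions. The real lists share far fewer, so that run checks the code only and does not bear on the calls reported here. Python 3.11.15, pandas 2.3.3, numpy 2.4.6 and matplotlib 3.10.9 were used.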

Additional observations from a re-analysis of the deposited data

Results flagged for a closer look

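Peaks in the Tbx1 window moved in opposite directions in the 2 citraconate comparisons at equal list length. In the first series the ZR_dmCitra libraries had 0 and 0 peaks and the ZR_DMSO libraries 1 and 1, a difference of -1. In the second series the Citraconate_50K libraries had 4 and 3 and the DMSO_50K libraries 2 and 1, a difference of 2. At equal length every library of each treated group lay on its own side of its controls, and the difference between the 2 effects was not tested. The ZR_DMSO peak was the one within Gnb1l. In Citraconate_50K replicate 1, peaks tied at place 29744.5 were counted only through the breaking of ties. As deposited, ZR_dmCitra had 2 and 3 peaks against 1 and 1 in ZR_DMSO, the opposite direction. Citraconate_50K then had 4 and 3 against 2 and 4 in DMSO_50K, which overlapped. The 2 comparisons used lists of 12390 and 29432 peaks, and in the second the treatment and the cell line label cannot be told apart.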

How the results depend on the processing

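In ZR against EV, 2 T-box regions in place of 1 were gained with the lists as deposited or at −log10 q of at least 5, and 1 to 2 when single libraries were left out (2 without ZR replicate 2 or EV replicate 1). Lost regions numbered 4 in place of 7 with a 10 kb window, and 7 to 10 without single libraries. The difference in peak number, -9.5, was -6 as deposited, -6.5 without the Tbx1 window and -10 to -6.5 without single libraries.

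In ZR_GSK343 against ZR_DMSO, 3 regions in place of 1 were gained as deposited and 3 at the q limit, and 0 with a 10 kb window or without regions at ends of other genes. Without single libraries 1 to 4 were gained (2 without ZR_GSK343 replicate 1 or ZR_DMSO replicate 1, 4 without ZR_GSK343 replicate 2) and 0 to 1 lost (1 without ZR_GSK343 replicate 2 or ZR_DMSO replicate 1). The difference of 2 was 17 as deposited, 1 without the Tbx1 window, and 1.5 to 4 without single libraries. In ZR_dmCitra against ZR_DMSO, 4 in place of 0 were gained as deposited and at the q limit, 1 with peaks over 50% of the region, and 0 to 1 without single libraries (1 without ZR_DMSO replicate 1). Lost regions numbered 0 in place of 1 with a 10 kb window and 1 to 2 without single libraries (2 without ZR_DMSO replicate 1). The difference of -1.5 turned to 6 as deposited, and was -0.5 without the Tbx1 window and -1.5 to -1 without single libraries.

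In Citraconate_50K against DMSO_50K, 6 regions in place of 1 were lost as deposited and at the q limit, and 0 with a 10 kb window. Without single libraries 0 to 3 were gained (3 without either Citraconate_50K library) and 1 to 3 lost (2 without Citraconate_50K replicate 2 or DMSO_50K replicate 1, 3 without DMSO_50K replicate 2). The difference of 0.5 turned to -9.5 as deposited, to -1.5 without the Tbx1 window and to -0.5 without Citraconate_50K replicate 2 (range -0.5 to 1). Lists as deposited add peaks to the longer lists, and a 10 kb window holds fewer regions; other causes were not tested. Of 104 alternative values, 28 were counts that moved by over 1.5 times or changed from or to 0, and 4 were differences that changed sign. The other 72 were counts unchanged or within 1.5 times, or differences of the same sign, whatever their size.

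Replicate numbers mark no shared source in the labels, and the correlation of same-numbered deviations was 0.0207, 0.0465, -0.0122 and -0.0164 in the 4 comparisons. With the replicate number as a block the differences stayed at -9.5, 2, -1.5 and 0.5, with exact p of 0.5, 0.5, 0.5 and 1.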
